A study of Mus musculus with 12 samples.

Results

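Amino acid and neurotransmitter transporters were examined in mouse mammary tumours as 46 genes of the solute carrier families Slc1, Slc3, Slc6, Slc7, Slc36 and Slc38. Every gene on the array whose symbol began with one of these family names was taken, out of 29742 genes in all. Where a gene had several probes, the brightest over all arrays stood for it, which chose 46 of 72 probes, and 27 of the genes had only 1 probe. All 46 genes passed the filter on dim probes, which left 29498 genes for testing. Slc6a20 is the gene that RefSeq now lists as Slc6a20b.

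The tumours came from female mice of 6 strains, YB, YC, YD, YE, NYPD and the parental NDL2-5 (written NDL25), which all carry an activated neu (ErbB2) receptor under the MMTV promoter, a viral promoter that drives expression mainly in mammary epithelium. As background, NYPD is a receptor without its main tyrosine phosphorylation sites, and YB, YC, YD and YE each have 1 of those sites put back. Tumours were taken after 6 weeks of tumour bearing. Ages were not given in the sources used here. RNA of 5 tumours was combined in each pool, with 2 pools per strain, so each of the 12 pools averages over animals. Each pool was set against Universal Mouse Reference RNA, which is sold as a pool from many kinds of mouse cells, on 2 two-colour arrays with exchanged dyes. Values below are log2 tumour over reference RNA for 1 pool, and differences between strains are differences of these log2 ratios with their standard error (SE) and n = 2 pools per strain.

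Solute carriers move amino acids and related molecules across membranes, mostly by coupling them to sodium or proton gradients or by exchanging one amino acid for another. Growing epithelial tumours draw on a few of them for glutamine, leucine and cystine: Slc1a5 imports glutamine, the pair of Slc7a5 and Slc3a2 exchanges intracellular glutamine for leucine and other large neutral amino acids, and Slc7a11 with Slc3a2 exchanges glutamate for cystine, the precursor of glutathione. The Slc6 family includes the carriers that clear noradrenaline, dopamine, serotonin, GABA and glycine from the space around neurons, together with carriers of taurine and creatine that act in many tissues.

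The tumour RNA carried its tissue markers in all pools: the mean log2 ratio over 10 luminal and milk genes was between 2.10 and 3.08. Erbb2 itself, read from its brightest probe, had log2 ratios of 1.85 in YB pool 1 and 1.64 in NDL25 pool 1, and between 3.42 and 4.19 in the other 10 pools. Its second probe did not show this: these pools stood at 0.81 and 0.97, the other 10 between 0.45 and 1.03. On the third they stood at 0.24 and -0.01, the other 10 between 0.05 and 0.37. The YB pools carried salivary gland genes: 5 of 6 were called higher against NDL25, and the list's mean log2 ratio was 3.77 to 4.23 in YB, against 0.53 to 0.89 in the other strains. In the NYPD pools the fibroblast list (6 genes) had a mean of -0.80 and -0.15, the basal list (6 genes) 0.44 and 1.24, the macrophage list (7 genes) 1.22 and 1.26, the luminal list 2.81 and 3.08, and the nerve and glia list (8 genes) 0.26 and 0.31. In the NDL25 pools the same lists stood at -1.42 in both pools, at -0.30 and -0.04, at 0.65 and 0.69, at 2.24 and 2.49, and at 0.56 and 0.65. Called among them in NYPD against NDL25 were Trp63 and Oxtr (basal, 1.60 and 1.11), Cd14 (macrophage, 2.23) and Wap (milk, 2.33), all higher, and S100b (nerve and glia, -2.09), lower, with adjusted p from 0.0202 to 0.0468 in limma's fit. In such bulk RNA, fewer cells of a type and less RNA per cell cannot be told apart. The scanner software had processed the NYPD images on a day of their own, so strain and day cannot be told apart for NYPD. All YD and YE images were processed on another day than those of NDL25, and only YC pool 2 was split between these days. Strain and day can therefore hardly be told apart for YD and YE against NDL25 either, whereas YB and NDL25 shared a day.

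Relative to the reference RNA, the transporter genes spread widely, with 4 of 46 at a mean log2 ratio above 1 and 6 of 46 below -1. Among all genes tested, 5.03% lay above 1 and 5.21% below -1. Slc7a4, a distant member of the cationic amino acid carriers, had the highest mean log2 ratio at 1.92, with pools from 1.60 to 2.48. Slc1a1, a glutamate and cysteine carrier, followed with a mean of 1.29 and pools from 0.59 to 1.85. Slc6a2, the noradrenaline carrier, had a mean of 1.26, but its pools ran from -0.04 to 2.35. Slc7a7, a light chain that exports cationic amino acids in exchange for neutral ones, averaged 1.10, and Slc38a3, a sodium-coupled glutamine carrier, averaged 0.97.

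The low end held carriers of several kinds. Slc1a5, the glutamine importer, had the lowest mean log2 ratio at -1.84, with all 12 pools between -2.10 and -1.12. Slc1a4, its relative that exchanges alanine, serine and cysteine, averaged -1.36 with pools from -2.15 to -0.39. Slc7a3, a cationic amino acid carrier, averaged -1.16, Slc6a6, the taurine carrier, -1.16, and Slc6a9, a glycine carrier, -1.15. The sixth, Slc1a6, a glutamate carrier of Purkinje cells, was the nearest to the limit. These ratios depend as much on the cells in the reference mixture as on the tumours, and no test was made of them.

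The classes differed in how tightly their members sat. The 4 proton-coupled Slc36 carriers had mean ratios between -0.12 and 0.24. The 5 Slc38 carriers, which take up glutamine and other neutral amino acids with sodium, ranged from -0.03 to 0.97. The 8 Slc7 light chains, which need a heavy chain of the Slc3 family to reach the membrane, ranged from -0.62 to 1.10. Both extremes of the whole set came from the 7 Slc1 carriers, which ranged from -1.84 to 1.29, and the 4 cationic carriers, which ranged from -1.16 to 1.92. The standard deviation of a gene over the 12 pools had a median of 0.13 for the transporters and 0.15 for all genes tested.

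**Figure D1:**
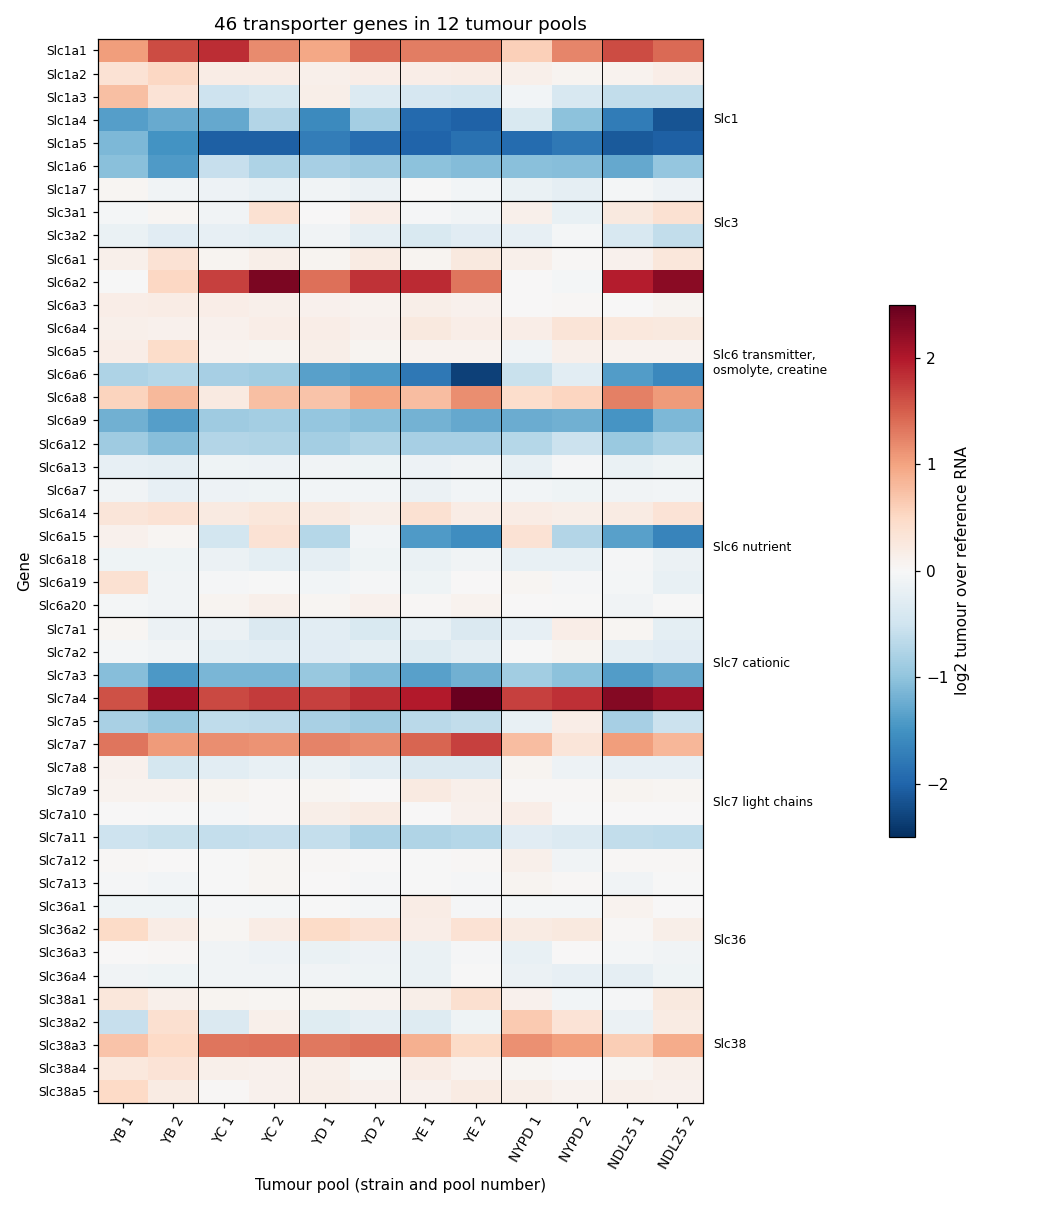
Heat map of the log2 tumour over reference ratio (colour) of 46 transporter genes (down the page, grouped by class) in 12 tumour pools (across, 2 per strain). Slc7a4 and Slc1a1 were above the reference RNA in all 12 pools and Slc1a5 below it in all 12, whereas Slc6a2 ran from -0.04 to 2.35.

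In the test over all 6 strains, made with limma and Benjamini-Hochberg adjustment over 29498 genes, 2 of 46 transporters were called, with 17 at an unadjusted p under 0.05 (background 3.11% called and 21.2% at that unadjusted p): Slc6a6 with adjusted p = 0.0207 and Slc6a2 with adjusted p = 0.0259. Without either pool of YD or NDL25, limma called 0 over the strains, with 13 to 16 at an unadjusted p under 0.05. Over the 9 contrasts there were 15 calls on 10 genes. This was 21.7% of the transporters, against 7.65% of all genes with a call in at least 1 contrast, and many of these contrasts share pools. Against NDL25, 4 genes were called in YB (background 3.86%), 3 of them higher (3.08%) and 1 lower (0.783%). In NYPD 2 were called (0.997%), 1 higher (0.447%) and 1 lower (0.549%), and there were 0 in YC (0.00678%), YD (0.00678%) and YE (0%). Against NYPD, 4 genes were called in YB (background 5.03%), 3 higher (3.96%) and 1 lower (1.07%). In YE 5 were called (1.84%), 2 higher (0.824%) and 3 lower (1.02%), and there were 0 in YC (0.017%) and YD (0.0102%). At an unadjusted p under 0.05, limma's test gave 12, 11, 8, 3 and 12 of 46 in YB, YC, YD, YE and NYPD against NDL25 (26.1%, 23.9%, 17.4%, 6.52% and 26.1%), where all genes gave 17.2%, 11.3%, 10.4%, 7.52% and 15.6%. It gave 13, 9, 7 and 15 in YB, YC, YD and YE against NYPD (28.3%, 19.6%, 15.2% and 32.6%), where all genes gave 20%, 10.2%, 10.8% and 19.3%. The pools of the compared strains did not overlap for 27, 25, 25, 17 and 29 of 46 transporters in YB, YC, YD, YE and NYPD against NDL25 (47.1%, 47.1%, 46%, 40.7% and 47% of all genes), and for 29, 25, 25 and 28 in YB, YC, YD and YE against NYPD (45.7%, 40.8%, 41.7% and 49.8% of all genes). The median log2 difference of the 46 genes was between -0.01 and 0.05 in all 9 contrasts, and that of all genes between -0.01 and 0.01.

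Slc6a2, which returns noradrenaline to sympathetic nerve endings, was low in YB and NYPD tumours. Its log2 ratios were -0.01 and 0.52 in the YB pools and 0.00 and -0.04 in the NYPD pools, against 1.96 and 2.26 in the NDL25 pools. The other strains lay near NDL25, with 1.71 and 2.35 in YC, 1.38 and 1.80 in YD, and 1.87 and 1.34 in YE. The YB and NYPD pools therefore lay below all 8 other pools, with no overlap.

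Set against NDL25, YB tumours had less Slc6a2, which fell by 1.85 (log2 difference, SE 0.29, 3.61-fold lower, adjusted p = 0.0175, limma). It fell in NYPD by 2.13 (SE 0.29, 4.37-fold lower, adjusted p = 0.0283, limma). Against NYPD, it rose in YE with a log2 difference of 1.63 ± 0.29 (SE, 3.08-fold, adjusted p = 0.0402, limma). YC and YD differed from NYPD by 2.05 ± 0.29 and 1.61 ± 0.29 (SE), and these did not pass the test (adjusted p = 0.0862 and 0.106, limma). YB and NYPD differed by 0.28 with a 95% confidence interval from -0.39 to 0.94. Between YC and NDL25, YD and NDL25, and YE and NDL25 no difference passed the test.

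The mean of the nerve and glia list was lowest in the same strains as Slc6a2. It stood at 0.38 and 0.40 in YB and at 0.26 and 0.31 in NYPD, against 0.42 to 0.65 in all other pools. Single genes of the list gave a mixed picture. Th, the enzyme that starts noradrenaline synthesis, had log2 ratios between -0.11 and 0.05 in all 12 pools, and Dbh, which makes noradrenaline from dopamine, between 0.09 and 0.40. S100b, a Schwann cell gene that is also found in other cells, was 0.66 and 0.52 in NYPD pools, against 3.04 and 2.33 in NDL25 pools (log2 difference -2.09 ± 0.22, SE, adjusted p = 0.0202, limma). In YB, S100b was 1.72 and 2.11. Its difference from NDL25 did not pass the test, while it was higher in YB than in NYPD (1.32 ± 0.22, adjusted p = 0.0190, limma), a contrast in which Slc6a2 had no call. S100b was higher in YE than in NYPD as well (1.61 ± 0.22, adjusted p = 0.0249, limma), a contrast in which Slc6a2 was called higher too. Tubb3, a neuronal tubulin of the same list, went the other way against NYPD, at -0.30 in YB and -0.36 in YE (adjusted p = 0.0498 and 0.0453, limma). Of the 8 nerve and glia genes, 1 was called in NYPD against NDL25, S100b, and 0 in YB against NDL25 (3 at an unadjusted p under 0.05, limma). S100b and Tubb3 were picked after their values were seen. The part of nerve, basal, macrophage, fibroblast, luminal and salivary cells in the Slc6a2 result was not tested.

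The Slc6a2 calls depended on single pools. In YB against NDL25 the difference was -1.59 (adjusted p = 0.0519) without YB pool 1, -2.00 (0.0843) without NDL25 pool 1 and -1.70 (0.108) without NDL25 pool 2, and within the shared image-processing day it was -1.85 (0.190). In NYPD against NDL25 it stayed between -1.98 and -2.28 but lost the call without either pool of YD, NYPD or NDL25, with adjusted p from 0.0523 to 0.128. In YE against NYPD it stayed between 1.36 and 1.89 and lost the call without either pool of YD, YE, NYPD or NDL25, with adjusted p from 0.0614 to 0.159. Slc6a2 had a single probe.

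Slc6a6, the taurine carrier that helps cells adjust their volume, followed another order of strains. Its log2 ratios were -0.78 and -0.71 in YB, -0.84 and -0.87 in YC, -1.36 and -1.41 in YD, -1.79 and -2.34 in YE, -0.57 and -0.27 in NYPD, and -1.40 and -1.61 in NDL25. NYPD was highest, YB and YC came next with pools close together, YD and NDL25 overlapped, and YE was lowest with no overlap with any other strain.

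Slc6a6 rose in NYPD against NDL25 with a log2 difference of 1.09 ± 0.17 (SE, 2.12-fold, adjusted p = 0.0407, limma). It fell in YE against NYPD by 1.65 on the log2 scale (SE 0.17, 3.13-fold lower, adjusted p = 0.0173, limma). YB differed from NDL25 by 0.76 ± 0.17 (adjusted p = 0.0591, and 0.0278 without either YE pool) and YC by 0.65 ± 0.17 (adjusted p = 0.217), and YD differed from NYPD by -0.97 ± 0.17 (adjusted p = 0.109). The second probe of the gene gave 1.27 ± 0.34 in NYPD against NDL25 and -1.17 ± 0.34 in YE against NYPD, the same directions, without passing the test over all probes. The fall in YE was lost only without YE pool 2, at -1.37 (adjusted p = 0.0853), whereas the rise in NYPD was lost in 12 of 22 other settings. Among them were the removal of either pool of YC, YD or NDL25 or of NYPD pool 2, with differences from 0.94 to 1.19 and adjusted p from 0.0692 to 0.154, and the difference ran from 0.94 to 1.24 over all 22.

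**Figure D2:**
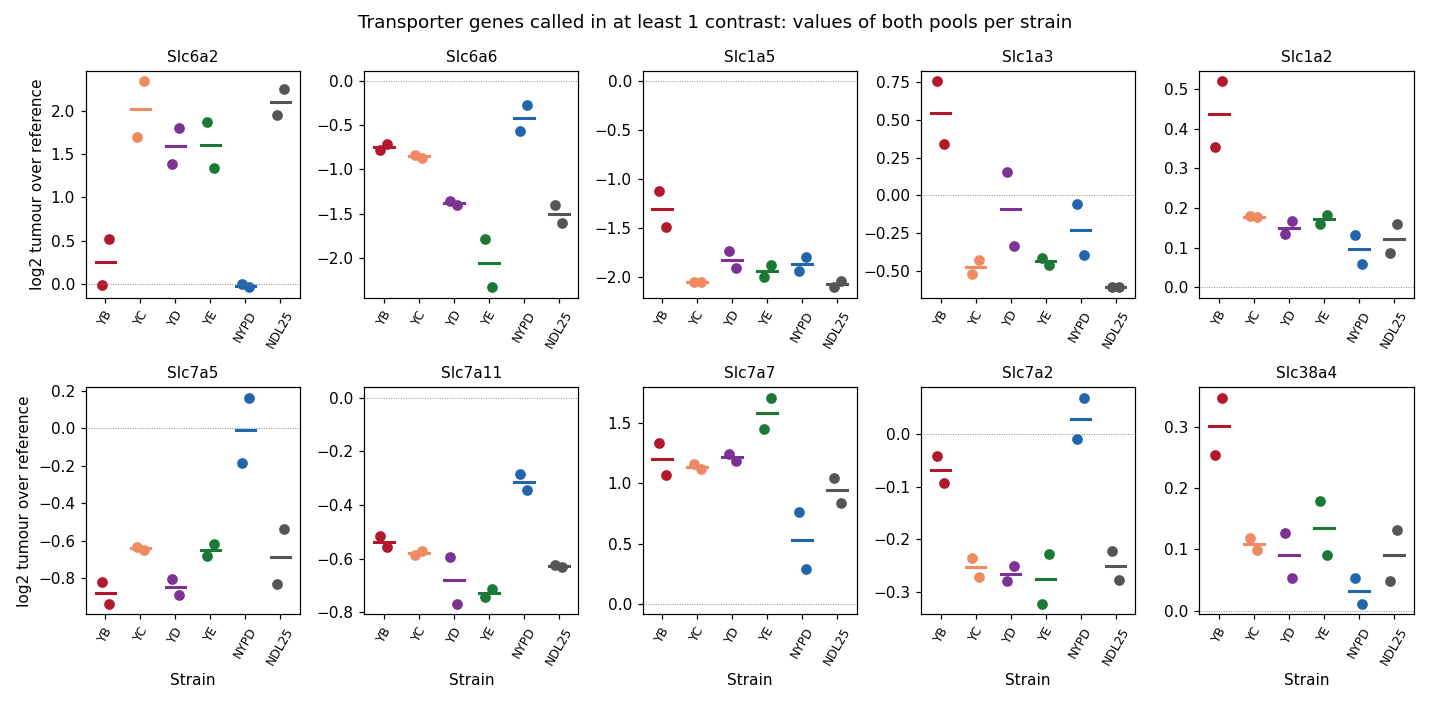
The log2 tumour over reference ratio (vertical axis, one panel per gene with its own scale) in both pools of each strain (points) with the strain mean (bar), for the 10 transporter genes called in at least 1 contrast. Slc6a2 is low in YB and NYPD, Slc6a6 is lowest in YE at -1.79 and -2.34, and Slc1a5 and Slc1a3 are highest in YB.

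In YB tumours Slc1a5, which carries glutamine, and Slc1a3, which carries glutamate, were higher than in NDL25 tumours. Slc1a5 had log2 ratios of -1.12 and -1.49 in the YB pools, against -1.93 and -1.80 in the NYPD pools and -2.10 and -2.04 in the NDL25 pools. The YC, YD and YE pools lay between -2.05 and -1.73, so both YB pools lay above the other 10. Slc1a5 rose in YB against NDL25 by a log2 difference of 0.77 ± 0.12 (SE, 1.70-fold, adjusted p = 0.0191, limma) and against NYPD by 0.56 ± 0.12 (SE, 1.47-fold, adjusted p = 0.0439, limma). Against NDL25 the call was lost without either NDL25 pool (0.73 and 0.80, adjusted p = 0.131 and 0.0936). Against NYPD it was lost without YB pool 1 (0.37, adjusted p = 0.0882) and without either pool of YC, YD, YE, NYPD or NDL25 (0.49 to 0.63, adjusted p from 0.0686 to 0.153).

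Slc1a3, a glutamate carrier best known from astrocytes, had log2 ratios of 0.76 and 0.34 in YB, against -0.61 in both NDL25 pools. The remaining 8 pools ran from -0.52 to 0.15, below both YB pools. The difference of YB from NDL25 was 1.16 ± 0.19 (SE, 2.23-fold, adjusted p = 0.0204, limma), and it was the largest rise among the transporters called in YB against NDL25. It was 0.95 (adjusted p = 0.0589) without YB pool 1, and 1.16 without either NDL25 pool (adjusted p = 0.128 and 0.110). The second, dimmer probe gave 0.17 ± 0.09.

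Slc1a2, another glutamate carrier of astrocytes, had log2 ratios of 0.35 and 0.52 in YB, against 0.13 and 0.06 in NYPD and 0.09 and 0.16 in NDL25. The brightest probe was called with 0.31 ± 0.07 against NDL25 (adjusted p = 0.0440, limma) and 0.34 ± 0.07 against NYPD (adjusted p = 0.0295, limma). The second probe went the other way against NDL25, at -0.23 ± 0.05, and with the mean of its 4 probes the gene differed by -0.02. No direction can therefore be given for Slc1a2. The call against NDL25 was lost without YB pool 2 or either pool of the other 5 strains (0.23 to 0.35, adjusted p from 0.0574 to 0.239), and that against NYPD likewise (0.26 to 0.38, adjusted p from 0.0524 to 0.113).

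Other marker lists moved with the salivary genes in YB against NDL25. The macrophage list stood at 1.15 and 1.68 in YB, against 0.65 and 0.69 in NDL25, with 7 of 7 genes higher and Cd14 called (2.26, adjusted p = 0.00698, limma). The adipocyte list stood at 1.05 and 1.24 in YB, against 0.75 and 0.78 in NDL25, with 6 of 6 higher and Plin1 called (0.31, adjusted p = 0.0440, limma). The fibroblast list stood at -1.08 and -0.12 in YB, against -1.42 in both NDL25 pools, with 6 of 6 higher and 0 called (1 at an unadjusted p under 0.05, limma). The basal list had 5 of 6 genes higher, and the luminal list 8 of 10, with a median log2 difference of 0.19. Called among them were Trp63, a basal gene, and Krt19, a luminal one, higher at 0.82 and 3.40 (adjusted p = 0.0490 and 0.0319, limma). The part of these cells in the Slc1 results was not tested. Pool 1 of YB and of NDL25 had the low Erbb2 ratios on the brightest probe. Without this pair, YB differed from NDL25 by 0.55 for Slc1a5, 0.95 for Slc1a3 and -1.73 for Slc6a2. NYPD then differed from NDL25 by -2.28 for Slc6a2 and 1.19 for Slc6a6, and all these calls were lost.

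Slc1a4, close in sequence to Slc1a5, had log2 ratios of -1.37 and -1.26 in YB, -1.27 and -0.74 in YC, -1.60 and -0.84 in YD, -1.94 and -2.02 in YE, -0.39 and -1.03 in NYPD, and -1.74 and -2.15 in NDL25. NYPD lay above NDL25 and YE without overlap, but the pools of NYPD, YC and YD were far apart. NYPD differed from NDL25 by 1.24 ± 0.31 (adjusted p = 0.110, limma), and YE from NYPD by -1.27 ± 0.31 (adjusted p = 0.0882, limma). The second probe gave 1.13 ± 0.19 in NYPD against NDL25, with adjusted p = 0.0463 over all probes. Slc1a6 ranged from -1.41 to -0.57, and YC differed from NDL25 by 0.46 ± 0.14 (adjusted p = 0.260, limma).

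Slc7a5, the leucine-importing light chain known as LAT1, was highest in NYPD. Its log2 ratios were -0.82 and -0.94 in YB, -0.63 and -0.65 in YC, -0.81 and -0.89 in YD, -0.68 and -0.62 in YE, -0.19 and 0.17 in NYPD, and -0.83 and -0.54 in NDL25. Both NYPD pools lay above the other 10. Slc7a5 fell in YB against NYPD by 0.87 on the log2 scale (SE 0.13, 1.83-fold lower, adjusted p = 0.0138, limma). The differences of YC, YD and YE from NYPD were -0.63, -0.84 and -0.64, each with SE 0.13, and did not pass the test (adjusted p = 0.168, 0.0766 and 0.0565, limma). NYPD differed from NDL25 by 0.68 ± 0.13 (adjusted p = 0.0627, limma). Without NYPD pool 1, which leaves 1 pool of that strain, the differences of YC and YD from NYPD were -0.81 and -1.01. That of NYPD from NDL25 was then 0.85. The call in YB was lost without YB pool 2 (-0.81, adjusted p = 0.0558), without NYPD pool 2 (-0.69, adjusted p = 0.0533) and with the first array of each pair (-0.85, adjusted p = 0.0536).

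Its heavy chain Slc3a2 had no call, with log2 ratios of -0.17 and -0.28 in YB, -0.21 and -0.04 in NYPD, and -0.41 and -0.61 in NDL25, and the remaining 6 pools lay between -0.39 and -0.09. The difference was 0.38 ± 0.09 in NYPD against NDL25 (adjusted p = 0.106, limma) and -0.10 in YB against NYPD, with a 95% confidence interval from -0.32 to 0.12. Slc3a1, the heavy chain of the kidney cystine carrier, ranged from -0.18 to 0.39.

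Slc7a11, the cystine-importing light chain, was also highest in NYPD. It had log2 ratios of -0.52 and -0.56 in YB, -0.59 and -0.57 in YC, -0.59 and -0.77 in YD, -0.74 and -0.71 in YE, -0.28 and -0.35 in NYPD, and -0.62 and -0.63 in NDL25. Every pool outside NYPD was lower than both NYPD pools. Slc7a11 fell in YE against NYPD by 0.41 on the log2 scale (SE 0.06, 1.33-fold lower, adjusted p = 0.0325, limma). The call was lost without either pool of YC, YE, NYPD or NDL25, at -0.44 to -0.38 with adjusted p from 0.0533 to 0.177. Its second probe, dim and made from another transcript record, gave -0.03 ± 0.07.

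Slc7a2, a carrier of arginine and lysine, was likewise highest in NYPD, with log2 ratios of -0.32 and -0.23 in YE, against -0.01 and 0.07 in NYPD. It fell in YE against NYPD by 0.31 on the log2 scale (SE 0.06, adjusted p = 0.0456, limma). The call was lost without either pool of YC, YD, YE, NYPD or NDL25, at -0.35 to -0.26 with adjusted p from 0.0611 to 0.175. The YC and YD differences from NYPD, -0.28 and -0.30, did not pass the test and changed sign with the second array of each pair. Slc7a1, the widely expressed arginine carrier, ranged from -0.38 to 0.17, and its difference was 0.08 in NYPD against NDL25 (95% confidence interval -0.28 to 0.44).

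Slc7a7 ran the other way, lowest in NYPD. Its log2 ratios were 1.33 and 1.06 in YB, 1.16 and 1.11 in YC, 1.24 and 1.19 in YD, 1.45 and 1.71 in YE, 0.76 and 0.29 in NYPD, and 1.05 and 0.84 in NDL25. The NYPD pools lay below all 10 others. Slc7a7 rose in YE against NYPD by a log2 difference of 1.05 ± 0.17 (SE, 2.07-fold, adjusted p = 0.0337, limma). The call was lost without either pool of YC, YD, YE or NDL25 or without NYPD pool 2, at 0.81 to 1.18 with adjusted p from 0.0536 to 0.206. In YC it differed from NYPD by 0.61 ± 0.17 (adjusted p = 0.255, limma), and in YE from NDL25 by 0.64 ± 0.17 (adjusted p = 0.415, limma). Slc7a9, the light chain of the kidney cystine carrier, stayed between 0.01 and 0.22.

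The calls of YE against NYPD were lost without YE pool 2, and without NYPD pool 2 only that of Slc6a6 was kept. Calls among all genes fell in both settings too, so the loss was not particular to the transporters. Besides the day on which images were processed, several marker lists separated these strains. The fibroblast list had a mean log2 ratio of -2.20 and -1.49 in YE, against -0.80 and -0.15 in NYPD, with 6 of 6 genes lower in YE, 0 called and 5 at an unadjusted p under 0.05 in limma's test. The macrophage list had 0.30 and 0.67 in YE, against 1.22 and 1.26 in NYPD, with 7 of 7 lower and Cd14 called (-2.13, adjusted p = 0.0198, limma). The basal list had -0.09 and 0.10 in YE, against 0.44 and 1.24 in NYPD, with 6 of 6 lower and Trp63 called (-1.57, adjusted p = 0.0173, limma). The luminal list had 2.10 and 2.31 in YE, against 2.81 and 3.08 in NYPD, with 3 of 10 genes higher in YE. Wap and Krt19 were called lower (-2.28 and -3.42, adjusted p = 0.0346 and 0.0458, limma). The endothelial list had 1.16 and 1.17 in YE, against 1.37 and 1.62 in NYPD, with 1 of 6 genes higher and Pecam1 called lower (-0.83, adjusted p = 0.0433, limma). The skeletal muscle list had -1.07 and -0.95 in YE, against -0.80 and 0.71 in NYPD, with 0 of 6 higher and 0 called (0 at an unadjusted p under 0.05, limma). The adipocyte list had 1.03 and 1.10 in YE, against 0.77 and 0.92 in NYPD, with 5 of 6 higher and 0 called (1 at an unadjusted p under 0.05, limma). The nerve and glia list had 0.47 and 0.51 in YE, against 0.26 and 0.31 in NYPD, with S100b called higher and Tubb3 called lower. The part of these cells in the Slc6a6, Slc7a and Slc6a2 results was not tested.

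**Figure D3:**
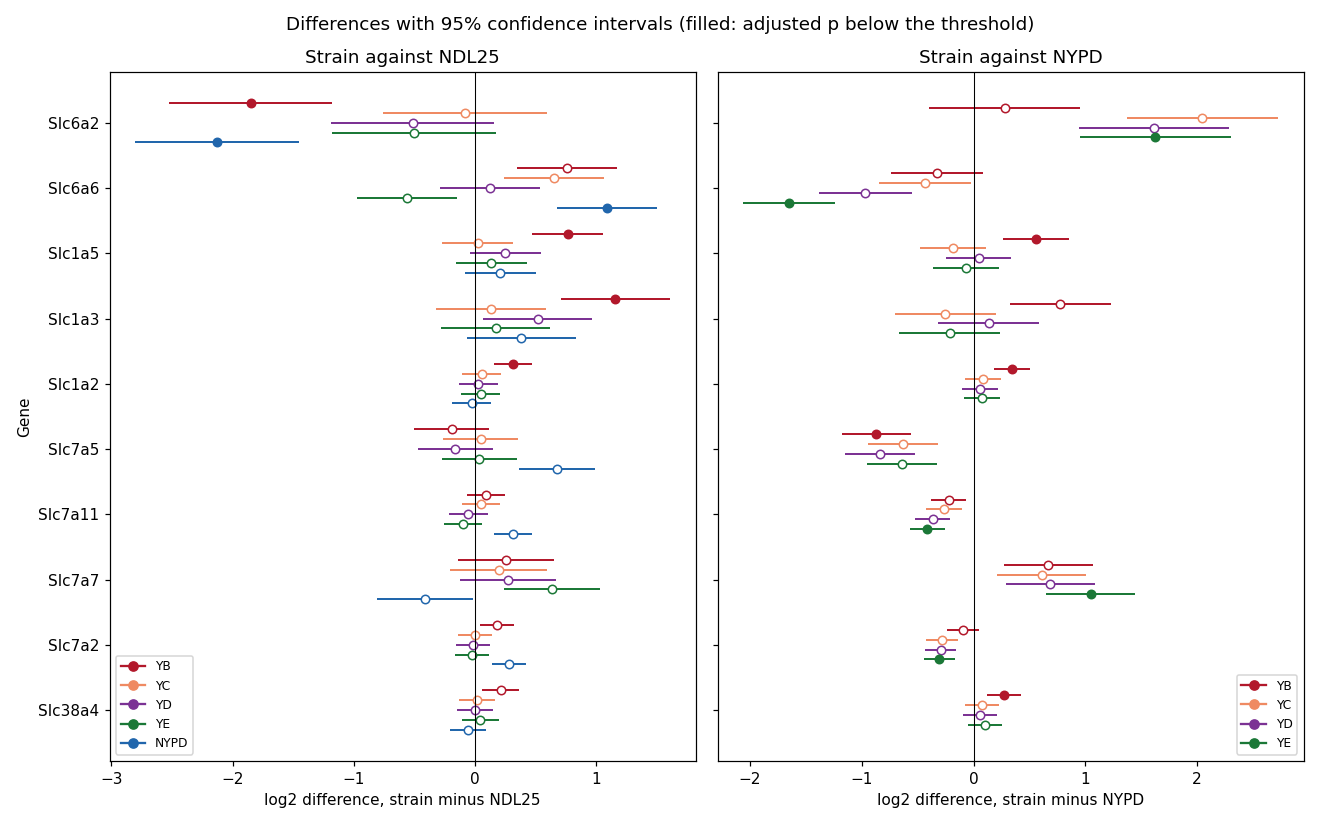
Log2 differences between strains (horizontal axis) with 95% confidence intervals for the 10 called transporter genes, against NDL25 (left panel) and against NYPD (right panel), with filled points where the adjusted p passed the threshold. Slc7a5, Slc7a11 and Slc7a2 lie left of 0 in all 4 strains set against NYPD, and Slc6a2 lies far left of 0 in YB and NYPD against NDL25.

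The letters of the promoters are shown for 3 of these genes because cells short of amino acids act on such genes through the C/EBP-ATF response element, the site bound by ATF4 with a C/EBP partner. RefSeq promoter windows on build GRCm38.p6, from 250 bases before to 50 bases after a start site, were at hand for 29 of the 46 genes. They are written 5′ to 3′ on the strand of the gene, and capitals mark matches to TGATGNAA on either strand.
Slc7a11, chr3:50443564-50443863, minus strand: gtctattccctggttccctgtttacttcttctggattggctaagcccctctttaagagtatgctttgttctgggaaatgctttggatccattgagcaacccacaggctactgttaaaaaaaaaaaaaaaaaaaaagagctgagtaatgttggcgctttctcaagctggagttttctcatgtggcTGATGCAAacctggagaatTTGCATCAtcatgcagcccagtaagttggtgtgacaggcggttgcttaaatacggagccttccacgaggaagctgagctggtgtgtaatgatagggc
Slc1a4, chr11:20332664-20332963, minus strand: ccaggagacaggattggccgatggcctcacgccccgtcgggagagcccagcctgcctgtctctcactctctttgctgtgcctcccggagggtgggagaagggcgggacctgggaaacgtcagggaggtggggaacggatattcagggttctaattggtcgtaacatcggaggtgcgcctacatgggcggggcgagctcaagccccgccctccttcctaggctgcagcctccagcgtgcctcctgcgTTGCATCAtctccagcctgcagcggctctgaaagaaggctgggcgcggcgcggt
Slc7a7, chr14:54417895-54418194, minus strand: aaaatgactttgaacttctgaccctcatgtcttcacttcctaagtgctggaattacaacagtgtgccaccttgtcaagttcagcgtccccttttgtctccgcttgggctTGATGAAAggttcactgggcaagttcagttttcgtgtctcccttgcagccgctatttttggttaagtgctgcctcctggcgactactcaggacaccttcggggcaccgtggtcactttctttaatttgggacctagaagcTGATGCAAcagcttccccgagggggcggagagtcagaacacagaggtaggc

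The Slc7a11 window holds the motif on both strands, with first bases at -66 and -47 from the start site. The Slc1a4 window holds it at -4, and the Slc7a7 window, 1 of 5 for that gene, at -141 and -1. Of the 32851 full-length promoter windows searched, which left out 1 chromosome, 3.97% hold the motif. Of the 46 windows of the 29 genes 4 do (8.7%). These 4 belong to 3 genes, because overlapping windows of Slc7a7 hold the same site. The cyclic AMP response element TGACGTCA was in 0 of those windows (1.79% of all), the E-box CACGTG in 5 of 46 (10.9%, against 7.15% of all), and the antioxidant response element TGACNNNGC in 6 of 46 (13%, against 12.4% of all). Slc7a11 and Slc1a4 had their highest mean ratio in NYPD and Slc7a7 its lowest.

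Among the Slc38 carriers, Slc38a4 was called in YB against NYPD at 0.27 ± 0.06 (adjusted p = 0.0497, limma), with 0.25 and 0.35 in YB, against 0.05 and 0.01 in NYPD, but its second probe gave -0.49 ± 0.09, so that no direction can be given. The call was also lost without either pool of any strain (0.22 to 0.32, adjusted p from 0.0526 to 0.162). Slc38a2, a glutamine carrier induced when amino acids run short, had log2 ratios of -0.58 and 0.39 in YB, against 0.65 and 0.35 in NYPD and -0.14 and 0.21 in NDL25. The pools of YB lay on either side of the NDL25 pools. Its 4 probes differed in NYPD against NDL25 by 0.47, 0.29, 1.57 and 0.43, all upward, and none passed the test over all probes. Slc38a1, its close relative, ranged from -0.07 to 0.40, with no call.

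Slc38a3 had log2 ratios of 0.72 and 0.50 in YB, 1.33 and 1.36 in YC, 1.31 and 1.38 in YD, 0.90 and 0.47 in YE, 1.14 and 1.02 in NYPD, and 0.61 and 0.93 in NDL25. YC and YD lay above the other strains without overlap, and differed from NDL25 by 0.58 ± 0.16 and 0.57 ± 0.16 (adjusted p = 0.221 and 0.261, limma). Slc36a2, a proton-coupled carrier of small amino acids, ranged from 0.03 to 0.49, with 0.33 ± 0.12 in YD against NDL25 (adjusted p = 0.390, limma).

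Among the nutrient carriers of the Slc6 family, Slc6a15, a carrier of branched-chain amino acids and proline in the brain, varied most. It had log2 ratios of 0.10 and 0.04 in YB, -0.47 and 0.36 in YC, -0.72 and -0.06 in YD, -1.42 and -1.55 in YE, 0.36 and -0.74 in NYPD, and -1.36 and -1.65 in NDL25. YE and NDL25 lay below all other pools, yet the pools of YC, YD and NYPD were far apart. Against NDL25 no strain passed the test, also not YB, whose pools were close (1.58), or NYPD (1.32). The differences of YC and YD were 1.45 ± 0.40 and 1.12 ± 0.40 (adjusted p = 0.223 and 0.396, limma). Slc6a14, a broad amino acid carrier of the intestine and mammary epithelium, stayed between 0.15 and 0.39 by its brightest probe, while its second probe had a mean ratio of 2.06, so its level against the reference RNA is not settled. Slc6a20 ranged from -0.09 to 0.12.

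No other transmitter or osmolyte carrier had a call. Slc6a9 ranged from -1.47 to -0.85, with 0.43 ± 0.12 in YC against NDL25 (adjusted p = 0.220, limma). Slc6a12, which carries betaine and GABA, ranged from -1.07 to -0.54, with -0.35 ± 0.09 in YB against NYPD (adjusted p = 0.0602, limma). The dopamine carrier Slc6a3 stayed between 0.01 and 0.18 and the serotonin carrier Slc6a4 between 0.10 and 0.32. Slc6a8, the creatine carrier, was above the reference RNA in all 12 pools, from 0.22 to 1.26. Slc6a19 was well above background on 8 of 24 arrays and Slc6a5 on 19, and all other transporters on all 24.

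**Figure D4:**
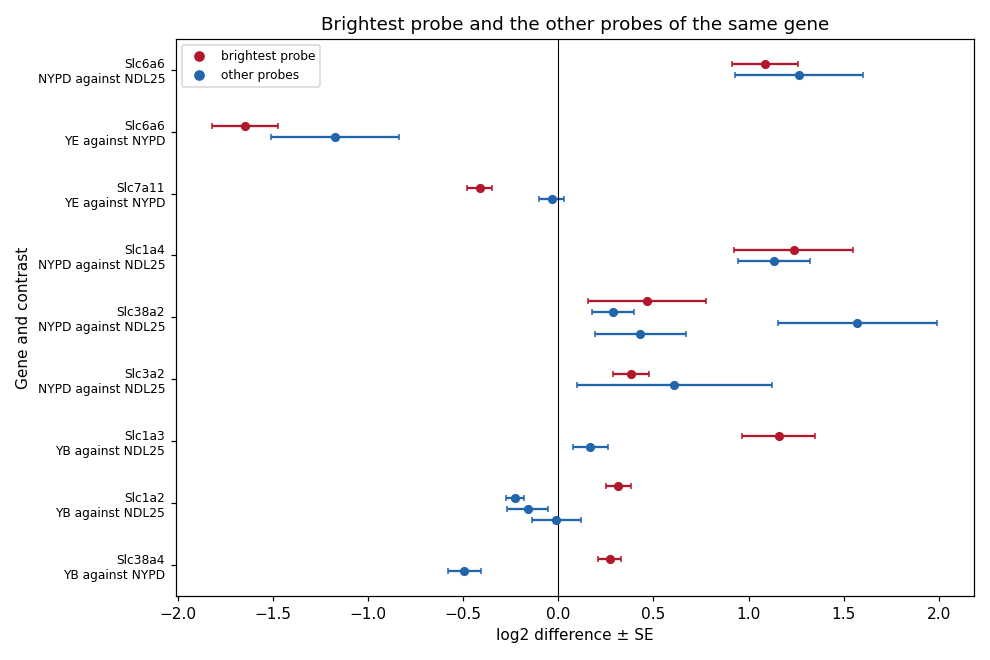
Log2 difference ± SE (horizontal axis) of the brightest probe and of each other probe of the same gene, for 9 pairs of gene and contrast. Probes of Slc6a6, Slc1a4, Slc38a2 and Slc3a2 share a direction, while those of Slc1a2 and Slc38a4 lie on both sides of 0.

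Genes that work beside the transporters were read from 7 lists. Of 24 genes of the amino acid response, 3 were called over the strains (background 3.11%): Asns, which makes asparagine, Pycr1, which makes proline, and the factor Cebpb. Asns had log2 ratios of 0.10 and 0.61 in YB, against -1.17 and -1.78 in NYPD and -1.19 and -1.11 in NDL25, and the remaining pools lay between -2.11 and -0.82. It rose in YB by 1.50 ± 0.24 against NDL25 (SE, adjusted p = 0.0198, limma) and by 1.83 ± 0.24 against NYPD (SE, adjusted p = 0.0103, limma), as Slc1a5 did. Atf4, the factor of the response, had no call and ranged from -1.52 to 0.12.

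Pycr1 was 0.86 and 1.02 in YE, against 0.18 and 0.23 in NYPD (0.73 ± 0.09, adjusted p = 0.0173, limma). It was also called in NYPD against NDL25 (-0.51, adjusted p = 0.0468, limma) and in YB against NYPD (0.49, adjusted p = 0.0218, limma). Cebpb fell in YE against NYPD by 0.65 (SE 0.08, adjusted p = 0.0183, limma), and was called in YB against NYPD as well (-0.38, adjusted p = 0.0385, limma). Of 13 genes of arginine, proline and polyamine metabolism, 1 was called over the strains. This was Sat1, which breaks down polyamines and rose in NYPD against NDL25 by 0.72 ± 0.08 (adjusted p = 0.0211, limma). Sat1 was also called in YB against NDL25 (0.43, adjusted p = 0.0266, limma) and in YE against NYPD (-0.56, adjusted p = 0.0255, limma). Odc1, the first enzyme of polyamine synthesis, rose in YB against NDL25 by 1.19 ± 0.22 (adjusted p = 0.0306, limma).

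Of 15 other amino acid and peptide carriers, Slc43a1, a carrier of leucine and other large neutral amino acids, was the single call over the strains. It had log2 ratios of 0.71 and 0.44 in YB, against -0.17 and -0.22 in NYPD and -0.52 and -0.59 in NDL25, and rose in YB against NDL25 by 1.13 ± 0.09 (adjusted p = 0.00147, limma). Slc43a1 rose in YB against NYPD too, by 0.77 ± 0.09 (adjusted p = 0.00676, limma), where Slc7a5 fell. Slc15a2, a peptide carrier, rose in YB against NYPD by 0.95 ± 0.19 (adjusted p = 0.0357, limma). Bckdk, which holds back the breakdown of branched-chain amino acids, fell in YB against NDL25 by 0.61 (SE 0.12, adjusted p = 0.0358, limma). Smaller rises in YB against NYPD were called for Otc (0.30 ± 0.05) and Tph1 (0.37 ± 0.07), with adjusted p = 0.0214 and 0.0299 in limma's fit.

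The 18 aminoacyl-tRNA synthetases had 0 calls in limma's test over the strains, with 3 at an unadjusted p under 0.05. In YE against NYPD 2 of 18 had a positive difference, and the median was -0.29, with 0.01 for all genes; 0 were called (4 at an unadjusted p under 0.05). The 16 tested genes of amino acid sensing by mTORC1 also had 0 calls over the strains (1 at an unadjusted p under 0.05), as did the 19 genes of transmitter synthesis, storage and breakdown (3) and the 16 genes of glutamine, glutamate and branched-chain metabolism (6).

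**Figure D5:**
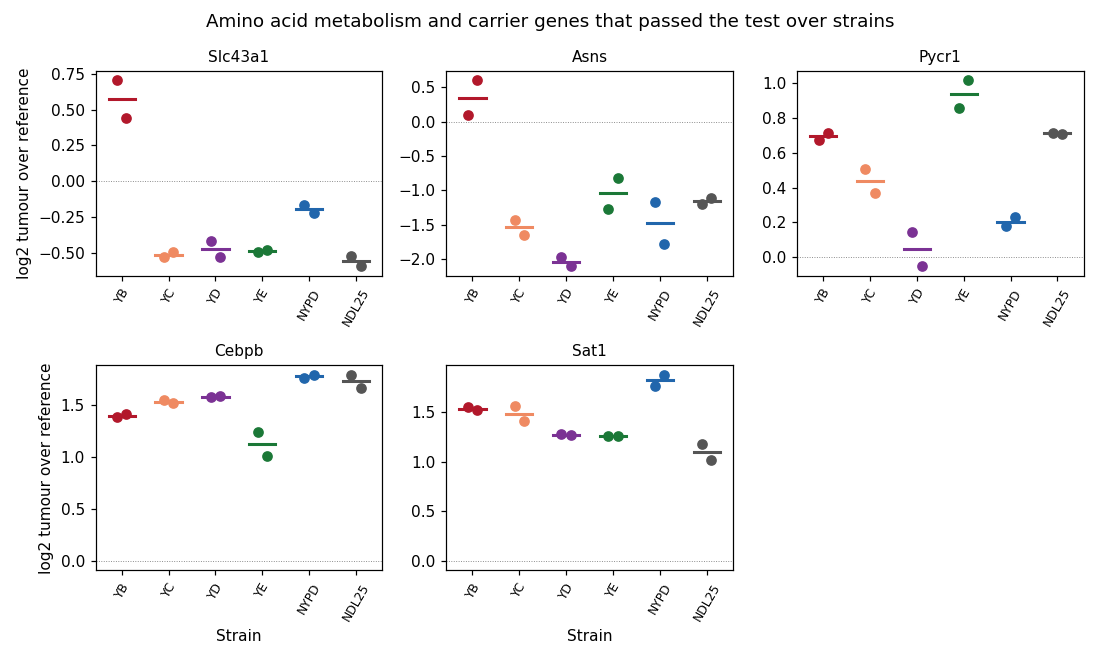
The log2 tumour over reference ratio (vertical axis, one panel per gene with its own scale) in both pools of each strain (points) with the strain mean (bar), for 5 genes of amino acid metabolism and transport called over the strains. Slc43a1 and Asns are highest in YB, and Pycr1 is highest in YE at 0.86 and 1.02.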

How the data were processed

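The scanner files hold mean and local background intensity in both channels, and a log10 ratio of processed signals, per the file headers. For each dye-swap pair 1 log2 ratio was deposited as well. RMA, limma and R 2.3.0 are named in the processing notes of the submitters, per the labels. Reading the deposited values as base 2 is an assumption. They correlated with the computed ratios at r = 0.983 to 0.988. The labels leave the dye of the tumour RNA open, so it was read from 23 probes of luminal and milk genes and from Afp: each pool had 1 array of each dye.

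Intensities were background-corrected (normexp, offset 50) and loess-normalised within arrays in limma 3.58.1 (R 4.3.3, data.table version 1.17.8). Non-uniform and outlier spots were dropped, the swapped array was turned, and the pair was averaged. Genes whose probe exceeded background with tumour RNA on under 4 arrays were left out. One model with 6 strain means was fitted to the 12 pools (6 residual and 1.76 prior degrees of freedom) and tested on simulated data. Adjusted p is Benjamini-Hochberg over 29498 genes, with a threshold of 0.05. The median SE was 0.109, and the number of pools per strain, 2, limits the precision.

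The members, gene lists and tests were chosen with earlier results of these data known. The text names every transporter called, the 5 with the smallest p in each contrast, the 5 highest and 5 lowest mean ratios, Slc1a5, Slc3a2, Slc7a5, Slc7a11, Slc7a1, Slc38a1, Slc38a2, Slc6a14 and Slc6a2, and every gene of the related lists called. One gene of metabolism is not reported here. Slc6a3, Slc6a4, Slc6a5, Slc6a8, Slc6a19 and the genes Th, Dbh, Atf4 and the marker genes were added after their values were seen. Promoters were searched for 4 motifs on both strands.

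Pool numbers are shared between strains, but nothing says that they pair pools. Deviations of equal-numbered pools correlated at 0.39 between YB and NDL25 and at -0.17 to 0.06 in the other 8 contrasts.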

Additional observations from a re-analysis of the deposited data

How the results depend on the processing

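With 2 pools a strain, most of the 15 calls depended on the setting. Over 25 alternatives, called differences stayed called in 181 cases, lost the call in 159 and reversed in 2, and of the uncalled differences 685 stayed uncalled, 10 became called and 3 reversed. The reversals were Slc1a2 in YB against NDL25 (-0.022) and Slc38a4 in YB against NYPD (-0.11), both with the mean over all probes, Slc7a2 in YC and YD against NYPD with the second array of each pair (0.14 and 0.0166), and Slc6a15 in YD against NDL25 (-0.54) with image-processing day as a term and YC pool 2 set halfway.

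Counts of transporters called over the strains (2 as reported) were 4 with the deposited ratios and 1 with the mean of probes. In NYPD against NDL25 (2) there was 1 with median centring, with the deposited ratios, with the second arrays and with the mean of probes. In YB against NYPD (4) there were 1 with median centring, 0 with the first arrays (9 at an unadjusted p under 0.05 in limma) and 1 with the second arrays. In YE against NYPD (5) there were 3 with median centring, 2 with the deposited ratios, 3 with the first arrays and 2 with the second arrays. All genes had, in the same order of settings, 181, 165, 129 and 253 calls in NYPD against NDL25 (294 as reported). They had 889, 520 and 710 in YB against NYPD (1484), and 610, 202, 260 and 347 in YE against NYPD (544). In YD against NYPD (0) there was 1 with the deposited ratios. In YC against NDL25 (0) and YC against NYPD (0) there was 1 each with the first arrays, and in YC against NYPD 1 with the second arrays. Calls among all genes rose in these settings too. They were 23 in YD against NYPD with the deposited ratios (3 as reported). With the first arrays they were 429 in YC against NDL25 (2) and 44 in YC against NYPD (5), and with the second arrays 126 in YC against NYPD. Within the shared day YB against NDL25 (4) had 0 (9 at an unadjusted p in limma). With day as a term YB against NDL25 had 3. Its calls among all genes fell from 1139 to 624 with this term, and fell further within the shared day. A term for day could not be fitted for NYPD or for the test over strains. For YD and YE against NDL25 the term rests on YC alone, the only strain with arrays on both days.

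Leaving out each pool in turn gave 0 to 3 calls over the strains, 0 to 5 in YB and 0 to 2 in NYPD against NDL25, 0 to 4 in YB, 0 to 1 in YC, 0 to 1 in YD and 0 to 5 in YE against NYPD, and 0 in YC, YD and YE against NDL25. The pools whose removal gave 0 were either NDL25 pool for YB against NDL25, and either pool of YD or NDL25 or NYPD pool 2 for NYPD against NDL25. They were NYPD pool 2 for YB against NYPD and YE pool 2 for YE against NYPD. In the test over the strains they were either pool of YD or NDL25, and in all these cases limma gave 8 to 16 genes at an unadjusted p under 0.05. Without pool 1 of NDL25 and of YB together, a setting added after seeing the data for their low Erbb2 ratio, there were 0 calls over the strains, in YB and in NYPD against NDL25 (15, 12 and 10 at an unadjusted p in limma), and 2 each in YB and YE against NYPD. The low Erbb2 ratio was that of its brightest probe. In the contrasts, calls among all genes fell too wherever those among the transporters fell to 0. The halfway day term was also added after seeing the data.

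With pool number as a replicate block, counts were 3 over the strains, 3 in YB and 2 in NYPD against NDL25, and 3 in YB and 4 in YE against NYPD. All genes then had 1121 calls in YB and 487 in NYPD against NDL25 (1139 and 294 as reported). They had 1593 in YB and 806 in YE against NYPD (1484 and 544). Slc1a2 in YB against NDL25 (adjusted p = 0.0524), Slc1a5 (0.0567) and Slc38a4 (0.0651) in YB against NYPD and Slc7a2 in YE against NYPD (0.0521) missed the threshold, and pool number is not known to pair pools.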
